A study of Homo sapiens with 18 samples.

Results

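The transcripts of 50 nucleolar factors of ribosome biogenesis (RB) were followed in polyA+ RNAseq of MCF10A and hTERT RPE-1 cells. The factors were chosen by gene symbol and comprise 3 general nucleolar proteins, 8 proteins of small nucleolar ribonucleoproteins (snoRNPs), 18 components of the small subunit processome, 7 factors of pre-40S particles and 14 factors of large subunit assembly. All 50 were listed among the 15358 genes of the MCF10A table and the 15257 genes of the hTERT RPE-1 table. All 50 passed the filter on low values in both lines, the lowest signals being 365 (MCF10A) and 208 (hTERT RPE-1). MCF10A is a near-normal breast epithelial line, and hTERT RPE-1 is a retinal pigment epithelial line immortalized with telomerase. In each line 3 libraries came from cells given the control siRNA siNT, 3 from cells given a mimic of hsa-miR-28-5p (the group labelled miR-28) and 3 from cells given a mimic of hsa-miR-708-5p (labelled miR-708). All transfections used 30 nM and were read after 72 h. A mimic is a synthetic RNA that supplies the mature microRNA from outside, so these groups model overexpression. The MCF10A replicates are numbered 7, 8 and 9, and those of hTERT RPE-1 are numbered 1, 2 and 3.

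Ribosomes are assembled in the nucleolus around a long precursor rRNA made by RNA polymerase I. snoRNPs guide its chemical modification, and the small subunit processome folds and cleaves its leading part until a pre-40S particle is released and finished in the cytoplasm. A separate set of factors assembles and exports the pre-60S particle. Growing cells express these factors together, and MYC is known as an activator of many of their genes. microRNAs lower target transcripts by pairing their seed with sites that lie mostly in 3′ UTRs.

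The sequence of hsa-miR-708-5p is shown because its seed defines the sites searched in the 50 transcripts. Both mimics have the same seed. The sequence was read from RefSeq (GRCh38.p14, chr11:79402077-79402099, minus strand), with the seed, bases 2 to 8, in capitals.
hsa-miR-708-5p: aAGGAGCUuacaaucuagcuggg
A match to the whole seed followed by A reads AGCTCCTA (8mer), a match to the seed alone AGCTCCT and a match without its last base but followed by A GCTCCTA (both 7mer), and the shortest match GCTCCT (6mer). In the 3′ UTRs of the canonical GENCODE 44 transcripts, 6 of the 50 factors (12%) held a 7mer or 8mer, and 2 (4%) held a 6mer only. Among all genes tested in MCF10A with a 3′ UTR, 18.7% held a 7mer or 8mer and 17% a 6mer only, with a median 3′ UTR of 1350 bases against 447.5 bases for the factors. The 6 factors with longer sites were DDX21, DDX52, HEATR1, WDR12, DDX18 and IMP4, and the 2 with a 6mer only were NCL and LTV1. Sites of DDX21, HEATR1, WDR12 and DDX52 are printed because they include the only 8mer, factors that fell with both mimics in MCF10A and the factor that rose in 3 comparisons, with 10 bases on each side and the match in capitals (hg38, 5′ to 3′ on the transcribed strand).
DDX21, 8mer, chr10:68984335-68984362, plus strand, exon 15: tagccagctcAGCTCCTAatccttgagg
HEATR1, 7mer, chr1:236550191-236550217, minus strand, exon 45: ggcacgaggaAGCTCCTccaggattca
WDR12, 7mer, chr2:202876606-202876632, minus strand, exon 13: tattactatgGCTCCTAttcttaaagg
DDX52, 7mer, chr17:37612484-37612510, minus strand, exon 15: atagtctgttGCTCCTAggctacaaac
DDX52, 7mer, chr17:37610911-37610937, minus strand, exon 15: tactaaatttAGCTCCTtcaaagcagt
With miR-708 in MCF10A, 5 of the 6 factors with a 7mer or 8mer fell (DDX21, HEATR1, WDR12, DDX18 and IMP4) and 1 rose (DDX52), 2 of 2 with a 6mer only fell, and 13 of 42 with no match fell. With miR-28 there, 3 of 6, 0 of 2 and 9 of 42 fell. Of all genes tested in MCF10A, with or without a match, 12% fell with miR-28 and 17.3% with miR-708. In hTERT RPE-1 none of the 6 fell, and 1 rose with miR-28 and 2 with miR-708. Of all genes there, 23.5% and 31.2% fell and 23.3% and 30.9% rose with miR-28 and miR-708. These shares were not tested against each other, and falls over all genes were not counted by match. The median log2 fold changes of the 6 factors were -0.31 and -0.39 in MCF10A with miR-28 and miR-708, and 0.03 and 0.23 in hTERT RPE-1. The 42 factors with no match had medians of -0.18 and -0.19 for MCF10A and 0.19 and 0.34 for hTERT RPE-1. A match is a description of letters and not a measured site.

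Depth, estimated from the spacing of low values, was 19.4 to 31.7 M reads per library in MCF10A and 23.8 to 40.3 M in hTERT RPE-1, so that 3 reads corresponded to a signal of at most 4.41. RPS28, the small subunit protein that the study followed as a target in these same data, served as a check of siNT labels against mimic labels. It was at 14.6% and 16.1% of siNT in MCF10A and at 4.55% and 4.76% in hTERT RPE-1 with miR-28 and miR-708. As it fell with both mimics, it cannot tell their labels apart. The paper notes that RPS28 in hTERT RPE-1 was somewhat sensitive to the control siRNA itself. No library came from cells without a transfected RNA, so all changes are relative to the siNT of each line. All 8 basal epithelial markers were listed in MCF10A with siNT means from 3267 (TP63) to 84082 (KRT5), whereas 5 of the 8 were absent from the hTERT RPE-1 table. Of 8 pigment epithelial markers, RPE65 and TYR were absent from the hTERT RPE-1 table, RLBP1 and LRAT were near 0 (siNT means of 2.42 and 3.47), and MITF was the highest at 1908. The list did not separate the lines, since in MCF10A LRAT was at 1212, BEST1 at 795 (166 in hTERT RPE-1) and MITF at 184, and RPE65 was listed at 17.8. The tables of the lines were scaled separately, so signals are not on a common scale across lines. rRNA genes took 15.1% of the signal in miR-28 replicate 1 of hTERT RPE-1 and 4.23% to 7.20% in its other libraries. A lower level in a bulk library can mean less RNA per cell or fewer cells with the RNA, and the 2 cannot be told apart here. Exons of 14 of the 50 genes overlap another annotated gene, among them HEATR1 (1986 bases with LGALS8), TSR1 (720 bases with SRR), NIP7 (426 bases with COG8), NOP14 (210 bases with its antisense gene) and PPAN (171 bases with a readthrough gene). NPM1 has 49 named pseudogenes. The signals of these genes are uncertain to the extent that reads were shared.

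Most factors that changed in MCF10A fell. With miR-28, 12 of 50 fell and 0 rose (limma on log2(signal + 1), Benjamini-Hochberg adjusted p below 0.05), where 12% of all 14726 genes tested fell, 10.7% rose and 22.7% were called in either direction. With miR-708, 20 fell and 1 rose, where 17.3% of all genes fell, 15.5% rose and 32.8% were called. The median log2 fold changes of the 50 were -0.21 and -0.23, against 0.01 and 0.00 for all genes. All 3 libraries with miR-28 lay below all 3 siNT libraries for 21 factors and above them for 2, where 22.1% and 19.7% of all genes did so. The corresponding numbers with miR-708 were 27 and 1, beside 23.9% and 22.6% of all genes. The counts changed when single libraries were left out. Such fits have fewer samples, and calls over all genes were not counted in them, here or below. A loss particular to the factors therefore cannot be told from a general loss of calls. siNT replicate 8 was the highest of the 3 siNT libraries for 39 of the 50 factors, beside 35.3% of all genes, and 5 factors were called with miR-28 and 12 with miR-708 without it. Without siNT replicate 9, 6 factors were called with miR-28. Without miR-708 replicate 9 or replicate 8, 10 and 13 factors fell with that mimic.

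In hTERT RPE-1 most factors that changed rose. With miR-28, 14 of 50 rose and 4 fell, where 23.3% of all 14527 genes tested rose, 23.5% fell and 46.8% were called. The share that rose was near the background, whereas few fell. With miR-708, 25 rose and 4 fell, where 30.9% of all genes rose, 31.2% fell and 62.1% were called. The median log2 fold changes of the 50 were 0.16 and 0.31, against 0.01 and 0.00 for all genes. All 3 libraries with miR-28 lay above all siNT libraries for 21 factors and below them for 4, beside 26.9% and 27.5% of all genes. With miR-708 these numbers were 27 and 3, beside 34.3% and 34.9%. The replicate 2 library with miR-708 was the lowest of its group for 46 of 50 factors, beside 37.6% of all genes, and without it 33 factors were called. Without siNT replicate 2, 8 factors rose with miR-28, and the 4 falls dropped to 2 without siNT replicate 1, siNT replicate 3, miR-28 replicate 2 or miR-28 replicate 3.

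**Figure D1:**
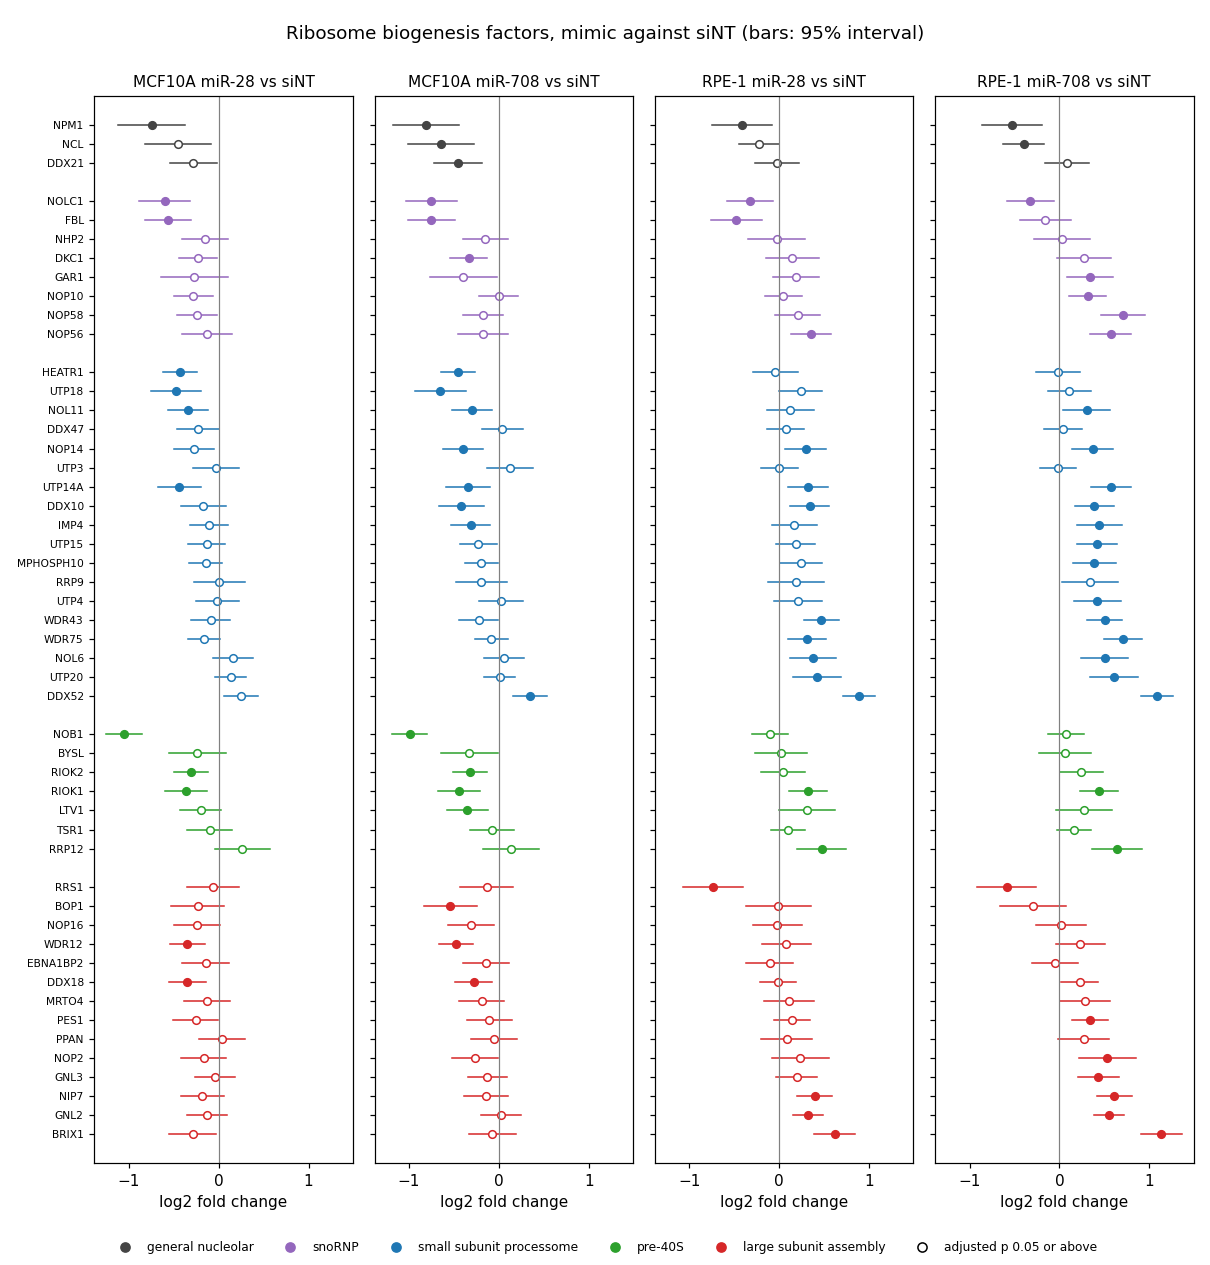
log2 fold change of each of the 50 factors (rows, grouped and colored by step) against siNT in 4 comparisons, with the 95% interval as a bar. Filled points passed an adjusted p of 0.05, and the points lie mostly left of 0 in MCF10A and mostly right of 0 in hTERT RPE-1, with NPM1, NCL and NOLC1 among those left of 0 in all 4.

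Scaling mattered for the counts. When every library was instead given the same total, the log2 fold changes of all genes had medians of 0.12 and 0.14 for MCF10A and of 0.09 and 0.32 for hTERT RPE-1. On that scale 7 factors fell and 2 rose with miR-28 in MCF10A, where 7.88% of all genes fell and 15.4% rose. With miR-708, 12 fell and 1 rose there, beside 11% and 22.9% of all genes. In hTERT RPE-1, 2 fell and 17 rose with miR-28, beside 18.7% and 27.3% of all genes. With miR-708, 0 fell and 43 rose, beside 18.3% and 46.8%. The medians of the 50 factors on that scale were -0.10, -0.08, 0.24 and 0.63, below the medians of all genes in MCF10A and above them in hTERT RPE-1. With miR-28 in MCF10A this scaling lost the falls of NOL11, WDR12, DDX18, RIOK1 and RIOK2 (adjusted p from 0.0726 to 0.139), and with miR-708 those of DKC1, UTP14A, NOL11, DDX10, DDX18, LTV1, RIOK2 and IMP4 (0.0558 to 0.256). Scaling to the upper quartile lost the falls of NOL11, RIOK1 and RIOK2 with miR-28 in MCF10A (0.0672 to 0.0758), those of UTP14A, NOL11, DDX18 and IMP4 with miR-708 (0.0586 to 0.0702) and that of NPM1 with miR-28 in hTERT RPE-1 (0.0547). All other values are on the scale of the deposited tables.

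The cell lines were then compared by the difference of their log2 fold changes, hTERT RPE-1 minus MCF10A. For miR-28 the difference passed the test for 20 of 50 factors, 19 of them higher in hTERT RPE-1, where 23.4% of the 13339 genes tested in both lines passed, 12.1% in that direction and 11.3% in the other. For miR-708 it passed for 35 factors, all 35 higher in hTERT RPE-1, where 39.8% of all genes passed, 20.2% in that direction and 19.6% in the other. The median difference over the 50 was 0.33 and 0.56, against -0.01 and -0.02 over all genes. Fold changes were below 0 in MCF10A and above 0 in hTERT RPE-1 for 31 factors (62%) with miR-28 and for 34 (68%) with miR-708, beside 18.1% and 18.4% of all genes. The reverse signs were found for 0 factors and for 1, UTP3, beside 17% and 16.9% of all genes. The count of 20 for miR-28 became 12 without MCF10A siNT replicate 8 and 13 without hTERT RPE-1 siNT replicate 2, and 13 when libraries were scaled to the same total or to the upper quartile.

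**Figure D2:**
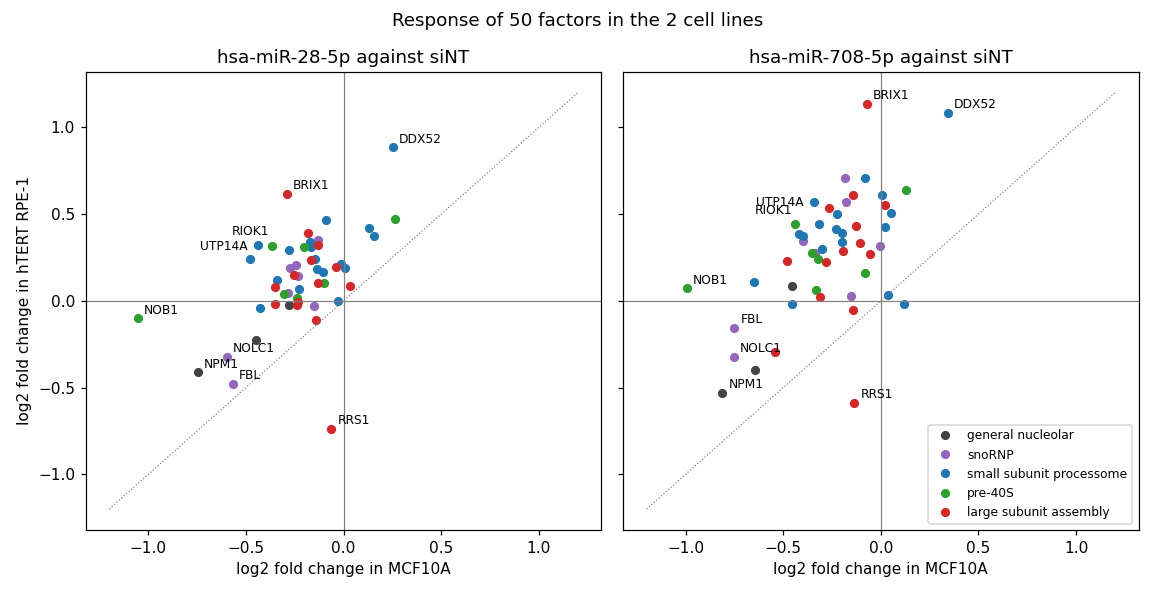
log2 fold change against siNT in MCF10A (x axis) and hTERT RPE-1 (y axis) for the 50 factors, colored by step, with miR-28 at left and miR-708 at right and equal responses on the dotted line. Most points lie above the dotted line, and RRS1 lies below it with both mimics.

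Nucleophosmin NPM1 and nucleolin NCL are abundant RNA-binding proteins and histone chaperones of the nucleolus, and DDX21 is an RNA helicase that acts in polymerase I transcription and rRNA processing. Per kilobase of transcript, NPM1 and NCL ranked first and second of the 50 in both lines, at 82652 and 14385 for MCF10A and 16352 and 4567 for hTERT RPE-1. NPM1 fell in all 4 comparisons. Its signals in MCF10A were 103482, 114269 and 109549 with siNT, 61868, 69256 and 64090.2 with miR-28 and 75878, 57064 and 55274 with miR-708. In hTERT RPE-1 they were 21189.6, 18820.3 and 24746 with siNT, 19015, 14590.0 and 15099.5 with miR-28 and 17194, 12577 and 15154 with miR-708. No MCF10A library with a mimic reached the lowest siNT library, whereas in hTERT RPE-1 1 library with miR-28 overlapped siNT. The log2 fold changes were -0.75 ± 0.17 (SE, adjusted p = 0.0102) and -0.81 ± 0.17 (adjusted p = 0.00406) in MCF10A, and -0.41 ± 0.15 (adjusted p = 0.0452) and -0.53 ± 0.15 (adjusted p = 0.0109) in hTERT RPE-1. The fall with miR-28 in hTERT RPE-1 missed the threshold without any 1 of siNT replicates 1 and 3, miR-28 replicates 2 and 3 or miR-708 replicate 3, with an adjusted p of up to 0.147.

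NCL signals in MCF10A were 54876, 64988 and 49479.5 with siNT, 39879.9, 41524 and 41807 with miR-28 and 44434, 34735 and 30096 with miR-708. The libraries with a mimic lay below siNT, and the siNT libraries were spread widely. The log2 fold change with miR-708 was -0.64 ± 0.17 (adjusted p = 0.0132), which missed the threshold without siNT replicate 8 (adjusted p = 0.0552) or miR-708 replicate 9 (0.0660). With miR-28 it was -0.45 ± 0.17 (adjusted p = 0.0745), which passed with the replicate number as a block (0.0449). In hTERT RPE-1 NCL gave 18796, 16460.2 and 18511 with siNT, 15679, 15658 and 14627 with miR-28 and 14504, 12121 and 14199 with miR-708. It fell there with miR-708 by 0.40 on the log2 scale (adjusted p = 0.00561), and with miR-28 the change was -0.22 ± 0.10 (adjusted p = 0.0914). DDX21 fell with miR-708 in MCF10A, where the signals were 20856, 20511 and 17332 with siNT, 16881, 16057 and 15248 with miR-28 and 15636, 14642 and 12552 with miR-708 (log2 fold change -0.46 ± 0.12, adjusted p = 0.0139). That call missed the threshold without siNT replicate 7, siNT replicate 8 or miR-708 replicate 9 (adjusted p up to 0.0696). In hTERT RPE-1 DDX21 gave 8044, 7498 and 8495 with siNT, 7774, 8290.3 and 7604 with miR-28 and 9294, 7153 and 9213 with miR-708, with overlapping groups. Its changes there were -0.02 ± 0.11 and 0.09 ± 0.11, and neither passed. Under the scaling to the same total, NPM1, NCL and NOLC1 no longer passed with miR-708 in hTERT RPE-1 (adjusted p = 0.234, 0.539 and 0.984), nor did NPM1 and NOLC1 with miR-28 there (0.0951 and 0.139).

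The box C/D proteins fibrillarin FBL, NOP56 and NOP58 form the particles that methylate rRNA, the box H/ACA proteins DKC1, NOP10, NHP2 and GAR1 form those that make pseudouridine, and NOLC1 is a chaperone of both classes. In MCF10A, 2 of 8 (25%) were called with miR-28 and 3 (37.5%) with miR-708, all falls, beside 22.7% and 32.8% of all genes. In hTERT RPE-1, 2 fell and 1 rose with miR-28 (37.5% called), and 1 fell and 4 rose with miR-708 (62.5%), beside 46.8% and 62.1% of all genes. NOLC1, like NPM1, fell in all 4 comparisons, and no other factor did.

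The box C/D core proteins did not move together. FBL, the methyltransferase, gave 5647, 6485 and 5740.5 with siNT in MCF10A, 3620.0, 3933 and 4527 with miR-28 and 4063, 3294 and 3294 with miR-708, with no overlap. Its log2 fold changes there were -0.57 ± 0.12 (adjusted p = 0.00649) and -0.75 ± 0.12 (adjusted p = 0.00081). In hTERT RPE-1 FBL went from 1839, 1457 and 1607 to 1276, 1084 and 1152 with miR-28 (-0.48 ± 0.13, adjusted p = 0.0106) and to 1623, 1226 and 1564 with miR-708 (-0.16 ± 0.13, adjusted p = 0.306). NOP56 and NOP58, which bind the same snoRNAs, did not pass in MCF10A, where their changes were between -0.24 and -0.13. There NOP56 gave 4895, 7245 and 6187 with siNT, 5162, 5671 and 5712 with miR-28 and 5355, 5384 and 5245 with miR-708, and NOP58 gave 5168, 5954 and 5646 with siNT, 4218, 5215 and 4767 with miR-28 and 5113, 4992 and 4663 with miR-708. In hTERT RPE-1 NOP58 gave 1494, 1381 and 1549.7 with siNT, 1671, 1883 and 1556 with miR-28 and 2590.1, 2056 and 2609.7 with miR-708, all above siNT. It rose with miR-708 (0.71 ± 0.11, adjusted p = 0.000302). NOP56 gave 1835, 1655 and 1553 with siNT, 2116, 2296 and 2019 with miR-28 and 2599.5, 2204 and 2687 with miR-708, and it rose with both mimics (0.35 ± 0.10, adjusted p = 0.0159, and 0.57 ± 0.10, adjusted p = 0.000657). The rise with miR-28 just missed the threshold without siNT replicate 3 (adjusted p = 0.0512).

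NOLC1 signals were 10456, 11574 and 10289 with siNT, 6907, 7354 and 7049 with miR-28 and 7945, 5893 and 5544 with miR-708 in MCF10A, where both groups with a mimic lay below siNT. The log2 fold changes were -0.60 ± 0.13 (adjusted p = 0.00785) and -0.75 ± 0.13 (adjusted p = 0.00132). In hTERT RPE-1 the signals were 4482, 3808 and 4436 with siNT, 3388, 3534 and 3243 with miR-28 and 3567, 2832 and 3835 with miR-708, with 1 library of miR-708 inside the range of siNT, and the changes were -0.32 with either mimic (adjusted p = 0.0424 and 0.0323). The first of these missed the threshold in 6 of 9 fits that left out 1 library, namely siNT replicates 1 and 3, each miR-28 replicate and miR-708 replicate 1 (adjusted p up to 0.132), and the second without siNT replicate 1, siNT replicate 3 or miR-708 replicate 2 (up to 0.124). Among the box H/ACA proteins, DKC1, the pseudouridine synthase, fell with miR-708 in MCF10A (-0.34 ± 0.10, adjusted p = 0.0186), and not without siNT replicates 8 or 9 or miR-708 replicates 8 or 9 (up to 0.0734). GAR1 and NOP10 rose with miR-708 in hTERT RPE-1 (0.34 ± 0.11 and 0.32 ± 0.09, adjusted p = 0.0232 and 0.0122). GAR1 missed the threshold without siNT replicates 1 or 2 or miR-708 replicates 1 or 3 (up to 0.0855), and NOP10 without miR-708 replicate 1 (0.0553). NHP2 passed in none of the 4 comparisons, with changes between -0.15 and 0.03. NOP10 with miR-28 in MCF10A (-0.28 ± 0.10, adjusted p = 0.0592) passed with the replicate number as a block (0.0349).

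Of the 18 small subunit processome components, 4 fell in MCF10A with miR-28 and 7 with miR-708, and DDX52 alone rose, with miR-708. The shares called were 22.2% and 44.4%, beside 22.7% and 32.8% of all genes. In hTERT RPE-1 none fell, 8 rose with miR-28 (44.4%) and 13 with miR-708 (72.2%), beside 46.8% and 62.1% of all genes called and 23.3% and 30.9% that rose. The difference between the lines passed for 9 (50%) and 15 (83.3%) of the 18, all higher in hTERT RPE-1, beside 23.4% and 39.8% of all genes.

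Of the 18, 6 belong to UTPA, the subcomplex that binds the nascent precursor first and is tied to polymerase I transcription. With miR-708 in hTERT RPE-1, 5 of these 6 rose, by 0.30 (NOL11) to 0.71 (WDR75), beside 30.9% of all genes. With miR-28 there, 2 of the 6 rose, beside 23.3% of all genes. In MCF10A 2 of the 6 fell with each mimic, beside 12% and 17.3% of all genes. The rise of NOL11 missed the threshold in 5 of 9 fits that left out 1 library (adjusted p up to 0.187). WDR75 gave 1289.8, 1216 and 1506 with siNT, 1700.4, 1734 and 1526 with miR-28 and 2146, 2131 and 2264 with miR-708, all above siNT (0.31 ± 0.10 and 0.71 ± 0.10, adjusted p = 0.0222 and 9.92e-05). WDR43 gave 1766, 1724 and 2053 with siNT, 2578, 2583 and 2478 with miR-28 and 2747, 2434 and 2659.9 with miR-708 (0.47 ± 0.09 and 0.50 ± 0.09, adjusted p = 0.00168 and 0.000603). In MCF10A, where neither passed, WDR75 gave 2488, 2551 and 2615 with siNT, 2267, 2394 and 2169 with miR-28 and 2362, 2378 and 2484 with miR-708. WDR43 gave 4654, 4983 and 4146 with siNT, 4033, 4393 and 4509 with miR-28 and 4190.0, 3681 and 3906 with miR-708 there. The exception among the 6 was HEATR1, at -0.04 and -0.02 in hTERT RPE-1. In MCF10A HEATR1 fell from 12107, 11609 and 11999 with siNT to 9096, 8791 and 8665 with miR-28 and 9023, 8699.5 and 8322 with miR-708 (-0.43 ± 0.09 and -0.46 ± 0.09, adjusted p = 0.00595 and 0.00239). All 6 libraries with a mimic lay below siNT in MCF10A. The rise of WDR75 with miR-28 missed the threshold without siNT replicates 1 or 2 or miR-28 replicates 1 or 2 (adjusted p up to 0.0924).

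UTP18, of the UTPB subcomplex, fell in MCF10A from 2279, 2544 and 2472 with siNT to 1616, 1919 and 1713 with miR-28 and 1887, 1327 and 1477 with miR-708. Its changes were -0.48 ± 0.13 and -0.65 ± 0.13 (adjusted p = 0.0217 and 0.00294). In hTERT RPE-1 UTP18 gave 1025, 933 and 1071 with siNT, 1189.9, 1271 and 1117 with miR-28 and 1168, 939 and 1177 with miR-708. The changes there were 0.24 ± 0.11 and 0.11 ± 0.11, and neither passed. The MCF10A call with miR-28 missed the threshold without siNT replicates 8 or 9 or miR-28 replicates 7 or 9 (adjusted p up to 0.0710).

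The helicase DDX52 was the only factor to rise in MCF10A. Its signals there were 1929.7, 1959 and 1859.6 with siNT, 2228, 2308 and 2306 with miR-28 and 2623, 2430.1 and 2252 with miR-708, and both mimic groups lay above siNT. In hTERT RPE-1 they were 1814, 1769 and 1959 with siNT, 3179, 3696 and 3373 with miR-28 and 3867, 3895 and 3987 with miR-708. The log2 fold changes were 0.25 ± 0.09 (adjusted p = 0.0566) and 0.34 ± 0.09 (adjusted p = 0.0109) in MCF10A and 0.88 ± 0.08 (adjusted p = 1.77e-05) and 1.08 ± 0.08 (adjusted p = 1.87e-06) in hTERT RPE-1. UTP20, a large scaffold protein, and NOL6 rose in hTERT RPE-1, while their changes in MCF10A (0.01 to 0.15) did not pass. UTP20 went from 1689.5, 1477 and 1513 with siNT to 2028, 1970.2 and 2263 with miR-28 and 2471, 1963 and 2754 with miR-708 (0.42 ± 0.12 and 0.61 ± 0.12, adjusted p = 0.0167 and 0.00142). NOL6 went from 1132, 1189.8 and 1049 with siNT to 1253, 1591 and 1546 with miR-28 and 1517, 1464 and 1818 with miR-708 (0.37 ± 0.12 and 0.50 ± 0.12, adjusted p = 0.023 and 0.00341). In MCF10A UTP20 gave 3161, 3181 and 3014 with siNT, 3317, 3423 and 3514 with miR-28 and 3105, 3134 and 3158 with miR-708, and NOL6 gave 1094, 1339 and 1179.5 with siNT, 1325, 1274 and 1410.4 with miR-28 and 1279, 1284 and 1169 with miR-708. With miR-28, UTP20 missed the threshold without siNT replicate 2 or miR-28 replicate 3 (adjusted p up to 0.0631), and NOL6 without siNT replicates 1 or 3 or miR-28 replicates 2 or 3 (up to 0.0770).

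The U3 snoRNP partners IMP4, MPHOSPH10 and RRP9 had changes of -0.14 to 0.24 with miR-28, and none passed. With miR-708, MPHOSPH10 rose in hTERT RPE-1, where it gave 1110.2, 1109.7 and 1354 with siNT, 1432, 1549.6 and 1250.0 with miR-28 and 1598, 1506 and 1562 with miR-708 (0.39 ± 0.11, adjusted p = 0.00888). In MCF10A MPHOSPH10 gave 2144, 2099 and 1973 with siNT, 1882, 1927 and 1813 with miR-28 and 1779, 1894 and 1751 with miR-708, with both groups below siNT and no call. UTP4 and UTP15 rose in hTERT RPE-1 too (0.42 ± 0.12 and 0.42 ± 0.10, adjusted p = 0.0104 and 0.00409). UTP3, DDX47 and RRP9 passed in none of the 4 comparisons.

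Of the 7 pre-40S factors, 3 (42.9%) fell with miR-28 and 4 (57.1%) with miR-708 in MCF10A, and none rose. Of all genes there, 22.7% and 32.8% were called, and 12% and 17.3% fell. In hTERT RPE-1, 2 (28.6%) rose with each mimic and none fell, beside 46.8% and 62.1% of all genes called and 23.3% and 30.9% that rose. NOB1, the endonuclease that makes the final cut at the end of the small subunit rRNA, showed the largest fall of the 50 in MCF10A. Its signals were 3131, 2945 and 3237 with siNT, 1385, 1506 and 1595 with miR-28 and 1635, 1537 and 1507 with miR-708. The 6 libraries with a mimic lay far below the 3 siNT libraries, with means at 48.2% and 50.2% of siNT. In hTERT RPE-1 the signals were 835, 756 and 748 with siNT, 747, 668 and 768 with miR-28 and 831, 796 and 829.6 with miR-708, and the groups overlapped. The log2 fold changes were -1.05 ± 0.09 (adjusted p = 0.000107) and -0.99 ± 0.09 (adjusted p = 3.57e-05) in MCF10A and -0.10 ± 0.09 (adjusted p = 0.39) and 0.07 ± 0.09 (adjusted p = 0.512) in hTERT RPE-1. The lines differed by 0.95 ± 0.13 with miR-28 (adjusted p = 2.99e-05) and by 1.06 ± 0.13 with miR-708 (adjusted p = 1.87e-06). The 3′ UTR of NOB1 held none of the seed matches.

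RIOK2, a kinase of late pre-40S particles, fell in MCF10A from 1284, 1324 and 1375 with siNT to 1026, 1125 and 1073 with miR-28 and 1060.4, 1049 and 1079 with miR-708 (-0.31 ± 0.09 and -0.32 ± 0.09, adjusted p = 0.0281 and 0.0158). RIOK2 gave 759.7, 752 and 899.6 with siNT, 871, 779 and 826 with miR-28 and 1029, 843 and 980.2 with miR-708 in hTERT RPE-1, with overlapping groups and no call. The first MCF10A call missed the threshold without any 1 of the 6 libraries compared (adjusted p up to 0.0994), and the second without siNT replicate 9 or miR-708 replicate 8 (up to 0.0634). LTV1, which marks particles for export, fell with miR-708 in MCF10A, where it gave 2069.8, 2461 and 2321 with siNT, 1758, 2135 and 2077 with miR-28 and 1873, 1778 and 1714 with miR-708 (-0.35 ± 0.10, adjusted p = 0.024), but not without siNT replicates 8 or 9 or miR-708 replicates 8 or 9 (up to 0.0887). In hTERT RPE-1, where LTV1 did not pass, it gave 1053, 780.3 and 1189 with siNT, 1274, 1219 and 1201 with miR-28 and 1309.6, 1090.1 and 1213 with miR-708. RRP12, which acts in subunit export, was the pre-40S factor with the largest rise in hTERT RPE-1. It went there from 1233, 1156 and 967 with siNT to 1575, 1417 and 1647 with miR-28 and 1749.7, 1495 and 1989 with miR-708 (0.47 ± 0.13 and 0.64 ± 0.13, adjusted p = 0.0107 and 0.00121), and in MCF10A, where it gave 1409, 1456 and 1103 with siNT, 1325, 1554 and 1902 with miR-28 and 1470.3, 1425 and 1419.5 with miR-708, its changes of 0.26 and 0.13 did not pass. BYSL and TSR1 passed in none of the 4 comparisons.

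**Figure D3:**
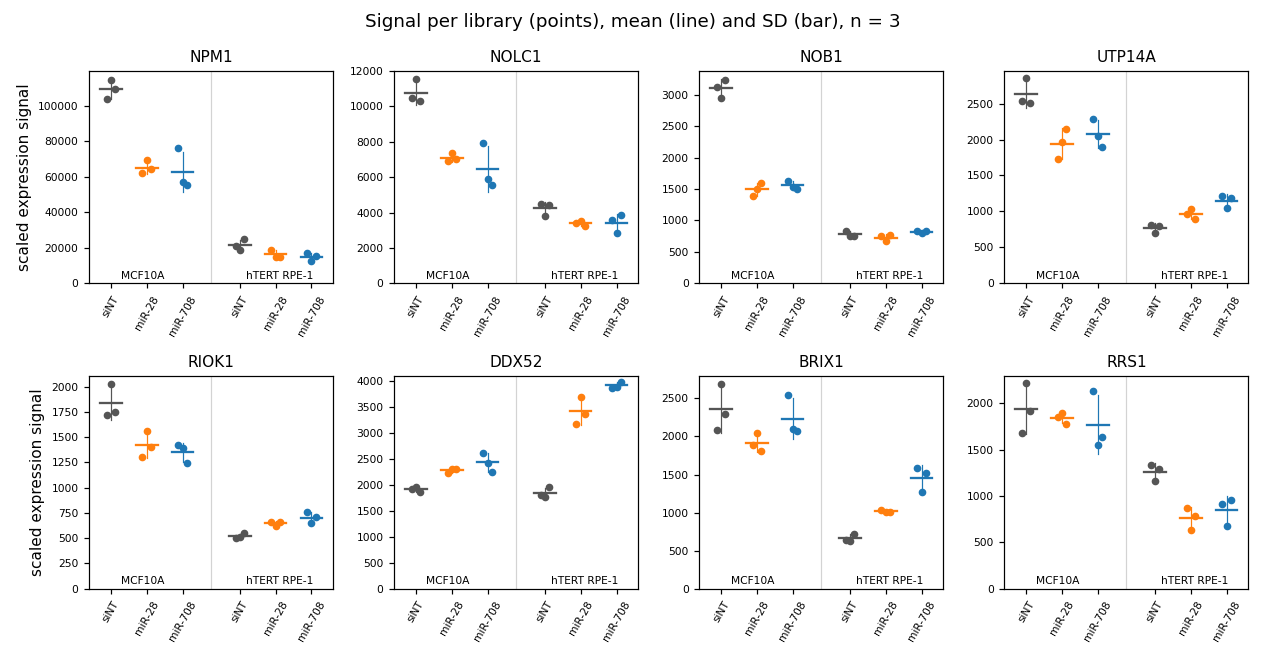
Signal of 8 factors in each of the 18 libraries (points) with the mean (line) and SD (bar) of each group of 3, MCF10A at left and hTERT RPE-1 at right of each panel. NOB1 drops with the mimics at left of its panel, while DDX52 and BRIX1 climb and RRS1 drops at right.

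Of the 14 large subunit assembly factors, 2 (14.3%) fell in MCF10A with miR-28 and 3 (21.4%) with miR-708, and none rose. Of all genes there, 22.7% and 32.8% were called, and 12% and 17.3% fell. In hTERT RPE-1, 3 rose with miR-28 and 6 with miR-708, and RRS1 alone fell with each, so that 28.6% and 50% were called, beside 46.8% and 62.1% of all genes. The difference between the lines passed for 6 (42.9%) and 9 (64.3%) factors, beside 23.4% and 39.8%.

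Among the large subunit factors, BRIX1, of early pre-60S particles, rose most in hTERT RPE-1. It gave 636, 632 and 719 with siNT, 1038, 1003 and 1005 with miR-28 and 1585, 1269 and 1526 with miR-708, so that the 3 groups did not overlap. Its log2 fold changes were 0.62 ± 0.10 (adjusted p = 0.000741) and 1.13 ± 0.10 (adjusted p = 6.45e-06). In MCF10A BRIX1 gave 2082, 2691 and 2292 with siNT, 1892, 2043 and 1812 with miR-28 and 2539.8, 2099.8 and 2069 with miR-708. The changes were -0.29 ± 0.12 and -0.07 ± 0.12, and neither passed. The lines differed by 0.91 ± 0.16 (adjusted p = 0.00036) and 1.21 ± 0.16 (adjusted p = 4.59e-06).

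RRS1, which brings the smallest large subunit rRNA into the particle, went the other way. It gave 1336, 1161 and 1288 with siNT in hTERT RPE-1, 868, 632 and 787 with miR-28 and 909, 680.1 and 954 with miR-708, all below siNT. It fell by 0.74 (adjusted p = 0.0025) and by 0.59 (adjusted p = 0.00586) on the log2 scale. In MCF10A RRS1 gave 1679, 2217 and 1919 with siNT, 1856, 1898 and 1782 with miR-28 and 2131, 1549.5 and 1633 with miR-708, with overlapping groups. The changes were -0.06 ± 0.13 and -0.14 ± 0.13, and neither passed. The difference between the lines was -0.67 ± 0.20 with miR-28 (adjusted p = 0.0189), the only one of the 50 that passed with a negative sign. With miR-708 the difference of RRS1 passed only with the replicate number as a block (adjusted p = 0.0295). With every library scaled to the same total, the fall with miR-708 missed the threshold (adjusted p = 0.124).

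PES1, BOP1 and WDR12 form the PeBoW complex, which is needed for processing of the large subunit rRNA. In MCF10A WDR12 fell with both mimics, from 2357, 2615 and 2683 with siNT to 1907, 2092 and 2007 with miR-28 and 1913, 1809.8 and 1768 with miR-708 (-0.35 ± 0.09 and -0.48 ± 0.09, adjusted p = 0.0171 and 0.00213). BOP1 fell with miR-708, where it gave 1556, 1729 and 1324 with siNT, 1353, 1139 and 1419 with miR-28 and 1210.3, 969 and 986 with miR-708 (-0.54 ± 0.13, adjusted p = 0.00988). PES1 did not pass in MCF10A, where it gave 3207, 3704 and 3018 with siNT, 2463, 2691 and 3174 with miR-28 and 3206, 2875 and 3115 with miR-708. In hTERT RPE-1 it gave 1803, 1571 and 1583 with siNT, 1687, 1838 and 1961 with miR-28 and 2142, 1966 and 2138 with miR-708 and rose with miR-708 (0.34 ± 0.09, adjusted p = 0.00787). The other 2 did not pass in hTERT RPE-1, where WDR12 gave 786, 682 and 782 with siNT, 931, 699.8 and 757 with miR-28 and 945, 798 and 901 with miR-708 and BOP1 gave 543, 487 and 464 with siNT, 488, 421 and 588 with miR-28 and 433, 322 and 475 with miR-708. The fall of WDR12 with miR-28 missed the threshold without siNT replicate 8 or 9 (adjusted p up to 0.0716).

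The GTPase GNL2 and the factor NIP7, both of pre-60S particles, rose with both mimics in hTERT RPE-1. GNL2 went from 1917, 1916 and 1908 with siNT to 2466, 2441 and 2274 with miR-28 and 2968, 2628 and 2822 with miR-708 (0.32 ± 0.08 and 0.55 ± 0.08, adjusted p = 0.00589 and 0.000117). NIP7 went from 764, 770.3 and 718 with siNT to 1013, 1025 and 924 with miR-28 and 1212, 1062 and 1168 with miR-708 (0.39 ± 0.09 and 0.61 ± 0.09, adjusted p = 0.00433 and 0.000158). In MCF10A GNL2 gave 3741, 4065 and 3714 with siNT, 3041, 3739.8 and 3781 with miR-28 and 4110.2, 3733 and 3845 with miR-708, and NIP7 gave 1566, 1910.2 and 1828 with siNT, 1472, 1597 and 1591 with miR-28 and 1803, 1547 and 1455 with miR-708. In hTERT RPE-1 nucleostemin GNL3 and the rRNA methyltransferase NOP2 rose with miR-708 (0.43 ± 0.10 and 0.53 ± 0.14, adjusted p = 0.00378 and 0.00766). In MCF10A none of these 4 passed, with changes between -0.27 and 0.02. The helicase DDX18 fell with both mimics in MCF10A (-0.35 ± 0.09 and -0.28 ± 0.09, adjusted p = 0.0208 and 0.0379). Its first call missed the threshold without siNT replicates 8 or 9 or miR-28 replicate 9 (up to 0.0717), and its second in 6 of 9 fits, without any 1 siNT library, miR-28 replicate 8 or miR-708 replicates 8 or 9 (up to 0.156). EBNA1BP2, MRTO4, NOP16 and PPAN passed in none of the 4 comparisons, and NOP16 with miR-708 in MCF10A (-0.31 ± 0.12, adjusted p = 0.0607) passed with the replicate number as a block (0.0384).

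With the same mimic, 6 factors fell in MCF10A and rose in hTERT RPE-1, 5 of them of the small subunit processome and 1 of pre-40S particles. UTP14A and RIOK1 did so with each mimic, and NOP14, NOL11, IMP4 and DDX10 with miR-708. Of all 13339 genes tested in both lines, 0.825% with miR-28 and 2.27% with miR-708 had this pair of calls. No factor rose in MCF10A and fell in hTERT RPE-1, where 0.727% and 1.84% of all genes did. The split by step was not tested.

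UTP14A, which activates a helicase of the processome, gave 2534, 2849 and 2507 with siNT in MCF10A, 1723, 1969 and 2141 with miR-28 and 2285, 2052 and 1889 with miR-708. The hTERT RPE-1 signals were 817, 701 and 800.2 with siNT, 970.0, 1028 and 899.8 with miR-28 and 1221, 1043 and 1183 with miR-708. No library with a mimic overlapped siNT in either line. The log2 fold changes were -0.44 ± 0.11 and -0.34 ± 0.11 in MCF10A (adjusted p = 0.016 and 0.0326), against 0.32 ± 0.10 and 0.57 ± 0.10 in hTERT RPE-1 (adjusted p = 0.0228 and 0.000598). The differences between the lines were 0.76 ± 0.15 (adjusted p = 0.0011) and 0.92 ± 0.15 (adjusted p = 5.85e-05). In MCF10A the first call was lost without siNT replicate 8 (adjusted p = 0.0632) and the second without any 1 siNT library or miR-708 replicates 8 or 9 (up to 0.128), and in hTERT RPE-1 the first was lost without siNT replicate 2 or miR-28 replicate 2 (up to 0.0932).

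RIOK1, an ATPase of late pre-40S particles, gave 1724, 2029 and 1754 with siNT in MCF10A, 1305, 1562 and 1403 with miR-28 and 1419, 1389 and 1246 with miR-708. Its hTERT RPE-1 signals were 501, 507 and 546 with siNT, 658, 620.2 and 659 with miR-28 and 756, 647 and 709 with miR-708. Again no library with a mimic overlapped siNT. The log2 fold changes were -0.37 ± 0.11 and -0.44 ± 0.11 in MCF10A (adjusted p = 0.0299 and 0.0089), against 0.32 ± 0.09 and 0.44 ± 0.09 in hTERT RPE-1 (adjusted p = 0.0181 and 0.0021). The differences between the lines were 0.69 ± 0.14 (adjusted p = 0.00173) and 0.88 ± 0.14 (adjusted p = 5.42e-05). With miR-28 the MCF10A call was lost without siNT replicates 8 or 9 or miR-28 replicates 7 or 9 (adjusted p up to 0.110), and the hTERT RPE-1 call without siNT replicates 1 or 2 or miR-28 replicate 3 (up to 0.0629).

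The other 4 went opposite ways with miR-708. NOP14, which links the processome to the small subunit head, went from 5503, 5870.1 and 5106 to 4662, 3919 and 3921 in MCF10A and from 1414, 1303 and 1379 to 1722, 1554 and 2066 in hTERT RPE-1 (-0.40 ± 0.10 and 0.37 ± 0.10, adjusted p = 0.0113 and 0.00904, line difference 0.77 ± 0.14, adjusted p = 0.000236). NOL11, a UTPA subunit, went from 2787, 3187 and 2968 to 2694, 2319.9 and 2243 and from 1300.2, 1127 and 1507 to 1768, 1427 and 1641 (-0.30 ± 0.10 and 0.30 ± 0.12, adjusted p = 0.0397 and 0.0466, line difference 0.61 ± 0.16, adjusted p = 0.00426). The NOL11 libraries with the mimic lay below siNT in MCF10A, and 1 of them lay within the range of siNT in hTERT RPE-1. IMP4, which pairs the U3 snoRNA with the precursor, went from 1712, 1949.8 and 1621 to 1476, 1311 and 1454 and from 669, 569 and 555 to 841, 707 and 893 (-0.31 ± 0.10 and 0.44 ± 0.11, adjusted p = 0.0286 and 0.00578, line difference 0.76 ± 0.15, adjusted p = 0.000416). DDX10, an RNA helicase, went from 2418, 2605 and 1999 to 1923, 1728 and 1582 and from 794, 716 and 760.1 to 1007, 881 and 1092 (-0.42 ± 0.11 and 0.39 ± 0.10, adjusted p = 0.0153 and 0.00559, line difference 0.81 ± 0.15, adjusted p = 0.000226). With miR-28 the 4 factors gave 4260.0, 4522 and 4812 (NOP14), 2415, 2483 and 2156 (NOL11), 1610.2, 1596 and 1691 (IMP4) and 2004, 2089.8 and 2107 (DDX10) in MCF10A. In hTERT RPE-1 they gave 1649, 1653 and 1721, 1469, 1466 and 1325, 666, 662 and 678 and 995, 959 and 923 in the same order. With miR-708, apart from NOL11, the groups did not overlap in either line. The miR-708 calls in MCF10A were lost for NOP14 without miR-708 replicate 9 (adjusted p = 0.0519), for DDX10 without siNT replicates 7 or 8 or miR-708 replicate 9 (up to 0.0690), for IMP4 without siNT replicates 7 or 8 or miR-708 replicates 8 or 9 (up to 0.112) and for NOL11 without siNT replicates 8 or 9, miR-28 replicate 8 or miR-708 replicates 8 or 9 (up to 0.145). With miR-28 the fall of NOL11 in MCF10A was lost without siNT replicates 8 or 9 or miR-28 replicates 8 or 9 (up to 0.113), and in hTERT RPE-1 the rise of DDX10 without siNT replicate 2 (0.0597) and that of NOP14 without any 1 of the 6 libraries compared or miR-708 replicate 1 (up to 0.115). Of the miR-708 calls in hTERT RPE-1 only that of NOL11 was lost, without siNT replicates 1 or 2, miR-28 replicate 3 or miR-708 replicates 1 or 3 (up to 0.187).

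Among the calls of the 50, those that passed in every fit leaving out 1 library and under every other setting tried were 5 of 12 with miR-28 in MCF10A (NPM1, FBL, NOLC1, HEATR1 and NOB1, all falls). With miR-708 in MCF10A they were 9 of 20 falls (the same 5 with UTP18, BOP1, WDR12 and RIOK1) and the rise of DDX52. In hTERT RPE-1 they were 6 of 14 rises (WDR43, DDX52, RRP12, BRIX1, GNL2 and NIP7) and 2 of 4 falls (FBL and RRS1) with miR-28. With miR-708 they were 22 of 25 rises and 0 of 4 falls.

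The mimics were then compared with each other. In MCF10A 0 of 50 factors differed between miR-708 and miR-28 (limma, Benjamini-Hochberg), 4 had an unadjusted p below 0.05, and 1.55% of all genes were called, 1.28% higher and 0.265% lower. The 3 libraries with miR-708 lay below the 3 with miR-28 for 3 factors and above them for 4, beside 9.62% and 10.4% of all genes. The 95% interval of the difference lay within a 1.5-fold change in either direction for 49 of the 50, extending 0.17 to 0.37 to each side on the log2 scale. In hTERT RPE-1 3 factors were higher with miR-708 and 0 lower, where 21.2% of all genes were called, 9.88% higher and 11.4% lower. They were BRIX1 (0.52 ± 0.10, adjusted p = 0.00655), NOP58 (0.50 ± 0.11, adjusted p = 0.0114) and WDR75 (0.40 ± 0.10, adjusted p = 0.0154). All libraries with miR-708 lay above those with miR-28 for 13 factors and below them for 1, beside 18.5% and 20.2% of all genes. For 44 of the 50 the interval lay within a 1.5-fold change, and 42 of the differences were above 0. NOP58 and WDR75 missed the threshold without miR-28 replicate 3 or miR-708 replicate 3 (adjusted p up to 0.0669), and without miR-708 replicate 2 as many as 11 factors differed. With the replicate number as a block 5 factors differed, with FBL (0.0265) and NOP10 (0.0436) added, where 22.8% of all genes were called. With every library scaled to the same total 31 were higher, where 27.2% of all genes were higher and 4.87% lower.

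Taken by library, the median log2 ratio of the 50 factors to the siNT mean was -0.09, 0.12 and -0.01 in the MCF10A siNT libraries, -0.30, -0.20 and -0.12 with miR-28 and -0.15, -0.30 and -0.27 with miR-708. In hTERT RPE-1 it was 0.05, -0.07 and 0.04 with siNT, 0.18, 0.16 and 0.13 with miR-28 and 0.41, 0.16 and 0.38 with miR-708. No library with a mimic overlapped siNT in either line. By step, the 3 general nucleolar proteins were the only group whose median lay below siNT in both lines. In hTERT RPE-1 their medians were -0.17 to -0.29 with miR-28 and -0.30 to -0.56 with miR-708, while those of the small subunit processome were 0.21 to 0.31 and 0.23 to 0.53. A median of 3 genes is the value of 1 gene, and DDX21 changed little there (-0.02 and 0.09, neither called). With the same total per library, 0 of the 50 factors fell with miR-708 in hTERT RPE-1.

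**Figure D4:**
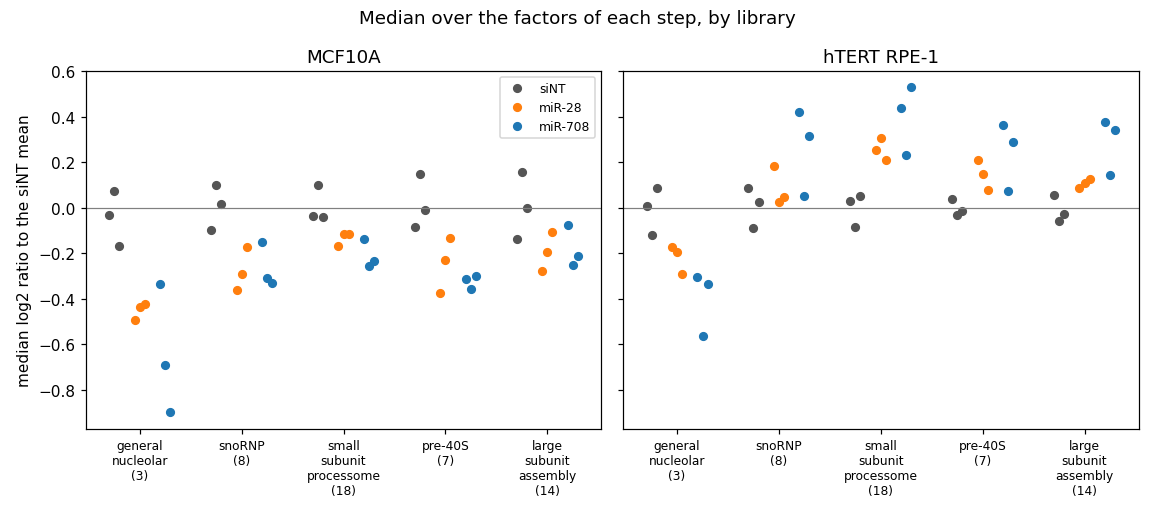
Median over the factors of each step (number of factors in parentheses) of the log2 ratio to the siNT mean, in each library, by treatment. In MCF10A the libraries with a mimic lie below 0 at every step, and in hTERT RPE-1 they lie above 0 except for the general nucleolar proteins.

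Windows around gene start sites were searched for CACGTG, the E-box that MYC and other factors bind, which reads the same on both strands. The window ran from 250 bases before to 50 bases after the start site listed by RefSeq (GRCh38.p14), and 42 of the 50 factors had one. The motif was present in 18 of 42 (42.9%), beside 7.43% of all 27305 windows and 9.96% of those of genes tested in MCF10A. By step it was found in 0 of 3 general nucleolar proteins, 2 of 6 snoRNP proteins, 9 of 16 small subunit processome components, 2 of 6 pre-40S factors and 5 of 11 large subunit factors. Of the 6 factors that went opposite ways, the search found no motif for RIOK1, NOL11 and DDX10. It is printed in capitals, on the transcribed strand, for UTP14A, NOP14 and IMP4, and for FBL, which fell in both lines with miR-28.
UTP14A, chrX:129905914-129905938, plus strand: accttgggcCACGTGgaaaccaggg
NOP14, chr4:2963376-2963401, minus strand: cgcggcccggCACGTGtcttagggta
IMP4, chr2:130342902-130342927, plus strand: ctcccggaccCACGTGgaagcggcac
FBL, chr19:39846358-39846383, minus strand: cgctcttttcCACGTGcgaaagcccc
The median log2 fold changes of the 18 factors with the motif were -0.16 and -0.21 for MCF10A and 0.22 and 0.36 for hTERT RPE-1, and those of the 24 without it were -0.24, -0.31, 0.09 and 0.26. Presence of the letters says nothing of binding. The MYC transcript itself fell in MCF10A, from 14535 ± 1825 (SD, n = 3) with siNT to 8647 ± 654 with miR-28 and 7475 ± 495 with miR-708 (log2 fold changes -0.74 and -0.95, adjusted p = 0.00169 and 0.000186). In hTERT RPE-1 it was at 1242 ± 173, 1181 ± 67.3 and 1182 ± 318 (-0.06 and -0.10, adjusted p = 0.792 and 0.648). The change of MYC thus differed between the lines along with that of the factors, by 0.68 and 0.85 (adjusted p = 0.0294 and 0.00435), and its part in the result was not tested.

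A list of 104 other RB factors, written from general knowledge, was read in the same way. In MCF10A 25 fell and 0 rose with miR-28, and 37 fell and 3 rose with miR-708. In hTERT RPE-1 14 fell and 36 rose with miR-28, and 15 fell and 49 rose with miR-708. In order, 24%, 38.5%, 48.1% and 61.5% of the list were called in either direction, beside 22.7%, 32.8%, 46.8% and 62.1% of all genes. The share called was thus near the background, whereas the split by direction was not. Of all genes, 12% and 17.3% fell and 10.7% and 15.5% rose in MCF10A with miR-28 and miR-708. In hTERT RPE-1, 23.5% and 31.2% of all genes fell and 23.3% and 30.9% rose. The medians were -0.18, -0.19, 0.13 and 0.25. The differences between the lines passed for 39 and 50, all higher in hTERT RPE-1, beside 12.1% and 20.2% of all genes in that direction. Without MCF10A siNT replicate 8, 10 and 20 fell with the 2 mimics, 15 fell with miR-28 without miR-28 replicate 9, and 19 fell with miR-708 without miR-708 replicate 9. In hTERT RPE-1 the falls were 8 and 6 without siNT replicate 1, 9 with miR-28 without siNT replicate 2 and 7 with miR-708 without miR-708 replicate 2. By group, with miR-708 in hTERT RPE-1, 22 of 42 large subunit factors rose and 7 fell, and 14 of 30 small subunit processome factors rose and 6 fell. Of the exosome subunits and cofactors 10 of 14 rose and 0 fell, of the snoRNP factors 2 of 10 rose and 0 fell, and of the pre-40S factors 1 of 8 rose and 2 fell. Beside these groups, 30.9% of all genes rose and 31.2% fell in that comparison. The groups were not tested against each other, and the other comparisons are not given by group.

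The 3 genes of this list with the largest mean fall fell in both lines. RSL24D1, a pre-60S protein, changed by -1.83 and -2.02 in MCF10A and by -1.42 and -1.73 in hTERT RPE-1 (adjusted p between 3.3e-07 and 0.000242). DNTTIP2, of the small subunit processome, changed by -0.82, -1.08, -1.03 and -1.10 in the same order, and the large subunit factor NOP53 by -0.52, -0.84, -0.89 and -1.22. The 3 with the largest mean rise were PAK1IP1, DDX24 and RRP15. PAK1IP1 rose in hTERT RPE-1 by 0.82 and 1.09 and RRP15 by 0.83 and 0.99, while their changes in MCF10A, between 0.13 and 0.24, did not pass. DDX24 rose in 3 comparisons, by 0.63 with miR-708 in MCF10A and by 0.63 and 0.81 in hTERT RPE-1.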

How the data were processed

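The authors aligned the reads with HISAT2 2.1.0 to hg38, counted them on RefSeq transcripts in Partek and deposited 1 table per cell line. The deposited values are a signal: estimated read counts divided by a size factor per library, which need not be whole, so no count model was used. In each library 82.8% to 88.1% of low values lay within 0.05 reads of a whole multiple, too few to recover reads. Further deposited tables hold the authors' own comparisons (ratios, fold changes, p-values, FDR values and least-squares means) and were not used. Within each line, genes that reached a signal of 10 in 3 or more of 9 libraries were tested with limma 3.58.1 (R 4.3.3) on log2(signal + 1), with a mean-variance trend and all 9 libraries in 1 fit per line. p-values were adjusted by Benjamini-Hochberg over all genes tested, and an adjusted p below 0.05 was called. Fold changes on this scale understate changes of low genes. The difference between lines is the log2 fold change in hTERT RPE-1 minus that in MCF10A, with the SE of both and Welch-Satterthwaite degrees of freedom, over 13339 genes.

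The study's methods call the 3 libraries of each group biological replicates. Deviations of same-numbered samples correlated over genes by 0.111 to 0.302 against siNT in MCF10A and by 0.134 to 0.278 between the mimics in hTERT RPE-1. The correlations were 0.025 to 0.177 between the mimics in MCF10A and 0.0214 to 0.151 against siNT in hTERT RPE-1. These ranges overlap, and correlations between samples with different numbers were not computed, so pairing is uncertain in both lines. The reported fits have no pairing term, and the fit with the replicate number as a block is an alternative. The fit was tested on simulated data with independent noise and no shift shared by the genes of a library. That test does not cover such shifts. Alternatives were a pseudocount of 0.5 or 10, no filter, scaling to the same total or upper quartile, the replicate number as a block, and leaving out each library. All 50 factors were counted. Values in every library are given for factors called in opposite directions in the 2 lines, factors whose line difference was called with both mimics, up to 3 factors per step with the largest absolute mean log2 fold change among those called, factors whose mimics differed, and NCL, NPM1 and FBL. Of the other factors, the 3 with the largest mean fall and the 3 with the largest mean rise are named. HEATR1 values and the names of the remaining called factors were added after their values were seen. The members and lists were chosen with earlier results of these data known. Seed matches were searched in 3′ UTRs of GENCODE 44, and promoter windows came from RefSeq.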

Additional observations from a re-analysis of the deposited data

Results flagged for a closer look

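The responses of the 2 cell lines to the same mimic differed by a test of the difference itself (hTERT RPE-1 minus MCF10A, log2 scale, Benjamini-Hochberg adjusted p below 0.05) for 20 of the 50 factors with miR-28 and for 35 with miR-708. Of all 13339 genes tested in both lines, 23.4% and 39.8% passed. The count with miR-28 ranged from 12 to 23 when 1 library was left out.

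With miR-28 the difference was 0.76 for UTP14A and 0.69 for RIOK1, which fell in MCF10A and rose in hTERT RPE-1. It was 0.95 for NOB1, which fell in MCF10A, 0.91 for BRIX1, which rose in hTERT RPE-1, and -0.67 for RRS1, which fell in hTERT RPE-1. With miR-708 the difference was 0.92 for UTP14A, 0.88 for RIOK1, 0.81 for DDX10, 0.77 for NOP14, 0.76 for IMP4 and 0.61 for NOL11, all lower in MCF10A and higher in hTERT RPE-1. It was 1.21 for BRIX1 and 1.06 for NOB1.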

How the results depend on the processing

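With libraries scaled to the same total, 7 factors fell and 2 rose with miR-28 in MCF10A, and 13 were called with miR-708, 12 of them falls. In hTERT RPE-1, 2 fell with miR-28, 0 fell and 43 rose with miR-708, 31 differed between the mimics, and 13 differed between the lines with miR-28. Of the 104 other factors, 13 fell and 3 rose and then 16 fell and 9 rose in MCF10A, 9 fell with miR-28 in hTERT RPE-1, and 3 fell and 78 rose with miR-708 there. With upper-quartile scaling 1 factor rose with miR-28 in MCF10A, where 16 other factors fell and 1 rose, and 13 factors differed between the lines. With the replicate number as a block, 1 other factor rose with miR-28 in MCF10A, and 5 factors differed between the mimics in hTERT RPE-1. The block ended the line difference of MPHOSPH10 with miR-28 (adjusted p = 0.0533) and added those of HEATR1 (0.0220) and DKC1 (0.0491). With miR-708 it added those of NOP10 (0.0417), NOLC1 (0.0336), UTP4 (0.0390) and RRS1 (0.0295), and the rises of DKC1 (0.0350) and MRTO4 (0.0410) in hTERT RPE-1. There the deviations of same-numbered samples correlated with those of siNT by 0.0214 to 0.151, so pairing with siNT is uncertain. Over all genes in MCF10A the block called 29.9% with miR-28 and 39.5% with miR-708, beside 22.7% and 32.8% without it.

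Leaving out 1 library at a time gave 5 to 15 calls with miR-28 in MCF10A (5 to 14 falls, 0 to 1 rises) and 11 to 22 with miR-708 (10 to 21 falls). In hTERT RPE-1 it gave 2 to 4 falls and 8 to 14 rises with miR-28, and 1 to 11 differences between the mimics. The lines differed for 12 to 23 factors with miR-28. Of the other factors, 10 to 29 fell and 0 to 1 rose with miR-28 and 19 to 40 fell with miR-708 in MCF10A, and 8 to 15 and 6 to 15 fell in hTERT RPE-1. These fits have fewer samples, and calls over all genes were not counted in them. No alternative reversed a single-gene value that was called. The cause of the changes with scaling was not tested. With 3 replicates per group, small differences may not have been detectable.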
